A study of Mus musculus with 19 samples.

Results

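The genes described here are those that encode the proteins of the cytosolic ribosome, with their paralogs, among them the muscle paralog Rpl3l. They were taken by symbol (Rpl or Rps followed by a number, plus Rplp0, Rplp1, Rplp2 and Rpsa), and the rule selected 92 of the 56066 rows of the table. Of these, 79 were core genes, 46 of the large and 33 of the small subunit, and 13 were paralogs, whose names carry a further l or rt. The naming rule placed 3 copies (Rps3a2, Rps3a3 and Rps23rg1) among the core genes. Not all members are annotated as coding in GENCODE M21. The paralogs Rpl32l, Rpl6l and Rps12l1 and the copies Rps3a2 and Rps3a3 are processed pseudogenes there. The paralogs Rpl37rt and Rps4l are transcribed processed pseudogenes, and all these rows stay in the counts and sums of their class. Expression was measured by RNA sequencing of mouse hearts that were wild type (WT) or carried a knockout of PDK1 labelled cKO. The groups were WT hearts at postnatal day 1 (P1, n = 3), day 7 (P7, n = 5) and day 21 (P21, n = 4), and cKO hearts at P7 (n = 3) and P21 (n = 3). The design text names the youngest age P0, and the sample labels, which are followed here, give P1. The sources used here did not give the Cre driver or say whether hearts were pooled; 2 WT P21 titles (libraries 2 and 3) carry the mark B6, and no other label names a strain. One further library at P21, numbered 63, had a cKO genotype label and a title without the KO mark, and entered no group.

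A ribosome carries each of its core proteins in a fixed ratio to ribosomal RNA, and the genes for these proteins are usually expressed together at high levels. Their messenger RNAs mostly begin with a C and a run of pyrimidines (the 5' terminal oligopyrimidine, or TOP, motif), through which translation follows signalling by mTOR. Rpl3 encodes a large-subunit protein that reaches towards the peptidyl transferase centre, and Rpl3l encodes a protein that takes its place in ribosomes of heart and skeletal muscle.

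Rpl3 (ENSMUSG00000060036) lies on the reverse strand of mm10 chromosome 15 from 80077791 to 80091868, and Rpl3l (ENSMUSG00000002500) on the forward strand of chromosome 17 from 24727820 to 24736143; both are protein-coding. Over 1202 aligned coding bases of GENCODE M21 the pair shared 899, an identity of 74.79%. None of the 50-base stretches of the Rpl3l transcript occurred in a transcript of another gene, so a read of that length without mismatches can be told apart from Rpl3. The first 120 coding bases are shown because the comparison of the pair rests on telling them apart, and capitals mark the 31 positions at which they differ.
Rpl3: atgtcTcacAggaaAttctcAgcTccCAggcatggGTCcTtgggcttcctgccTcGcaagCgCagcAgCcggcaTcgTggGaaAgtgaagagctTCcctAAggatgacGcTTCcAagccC
Rpl3l: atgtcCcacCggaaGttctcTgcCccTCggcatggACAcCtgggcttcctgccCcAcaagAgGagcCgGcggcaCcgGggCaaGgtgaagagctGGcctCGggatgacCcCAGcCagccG

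Other members were less distinct. The core genes shared a median of 48.42% of their 50-base stretches with transcripts of other genes, with a range from 0% to 98.65%, and 34 of 79 shared over 50%. For Rpl3 itself 85.56% was shared, most of it with Rpl3-ps1. Among the paralogs, Rpl22l1 shared 57.26% with transcripts of other genes, Rpl36al 24.86%, Rps4l 14.88%, Rps27l 13.69% and Rpl7l1 9.03%. How reads were divided among such copies was not given in the sources used here. The level of a single core gene or of such a paralog is uncertain to that extent. Rows named as ribosomal protein pseudogenes (319 rows) summed to 0.633% of all TPM at P1, 0.475% at WT P7 and 0.295% at WT P21.

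The annotated starts were read from RefSeq on GRCm38.p6, which held a window for 57 core genes and 10 paralogs. A start of C followed by 4 bases that are each C or T was found in 13 of the 57 core genes (22.81%), in 2 of the 10 paralogs (20%) and in 3.01% of 27025 genes. An annotated start can lie a few bases from the one used, so the other windows say only that these letters are not at the annotated base. Windows of 30 bases from 10 before the start are shown for 3 core genes with such a start and for Rpl3l without one, with the first 5 transcribed bases in capitals. Rpl38 is at chr11:114668570-114668599 (+), Rpl15 at chr14:18270967-18270996 (-), Rps27 at chr3:90213629-90213658 (-) and Rpl3l at chr17:24727816-24727845 (+).
Rpl38: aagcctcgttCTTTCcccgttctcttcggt
Rpl15: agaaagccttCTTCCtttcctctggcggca
Rps27: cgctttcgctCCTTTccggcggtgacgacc
Rpl3l: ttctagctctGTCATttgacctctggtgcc

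Levels were in TPM, a unit scaled for gene length and for the library total, so sequencing depth is unknown. Pdpk1 and Pdk1, either of which PDK1 can name, stood at 7.95 to 8.09 and 36.9 to 40.2 TPM in P7 cKO against 7.96 to 11.9 and 36.1 to 44.7 in P7 WT. At P21 they stood at 4.95 to 5.55 and 31.6 to 37.7 TPM in cKO against 6.17 to 7.65 and 24.3 to 29.4 in WT. All 9 cardiomyocyte markers were present, with sums of 52868 to 62436 TPM over the groups, and of 7 skeletal muscle markers 5 or 6 were under 1 TPM in every library of a group, Myod1 at 0. WT titles had a word or letter code (H, heart or B6, here called letter-coded) in all 3 libraries at P1, in 2 at P7 and in 2 at P21, and all other titles were plain numbers as in cKO, so title style was a term of the model. Pdpk1 at WT P7 stood at 11.9 and 11.6 TPM in the letter-coded libraries and at 8.09, 7.96 and 9.32 TPM in the plain-number ones. The median gene of the 14812 tested shifted by -0.47 on the log2 scale from WT P7 to WT P21, by -0.24 from cKO P7 to cKO P21 and by 0.22 from P21 WT to P21 cKO, and by at most 0.02 in the other comparisons between groups. Results are therefore given on TPM and again after median-ratio scaling, which divides each library by its median ratio to the mean library and sets that shift to about 0. The labels do not say that libraries came from separate animals, so p-values measure the spread between libraries, which may be technical.

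Core genes were abundant at every age, and their summed share of all TPM fell as hearts matured. They held 6.0%, 6.61% and 7.12% of all TPM in the 3 WT P1 libraries. At WT P7 the share was 5.14%, 4.60%, 4.55%, 4.79% and 4.61%, and at WT P21 it was 2.83%, 2.76%, 3.31% and 3.15%. No WT library overlapped between ages. In cKO hearts the share was 4.78%, 4.86% and 4.55% at P7 and 3.48%, 3.61% and 3.73% at P21. The P7 genotypes overlapped, and the 3 cKO libraries at P21 lay above all 4 WT libraries. The core gene at the median stood at 771 TPM at P1, 536 at WT P7, 336 at WT P21, 529 at cKO P7 and 407 at cKO P21, with Rplp1, which encodes an acidic protein of the stalk that recruits translation factors, highest in each group (2318, 1639, 1068, 1674 and 1427). Of the 200 rows with the highest mean, 50 were core genes at P1 and 24 at WT P21, with 31 at cKO P21.

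**Figure D1:**
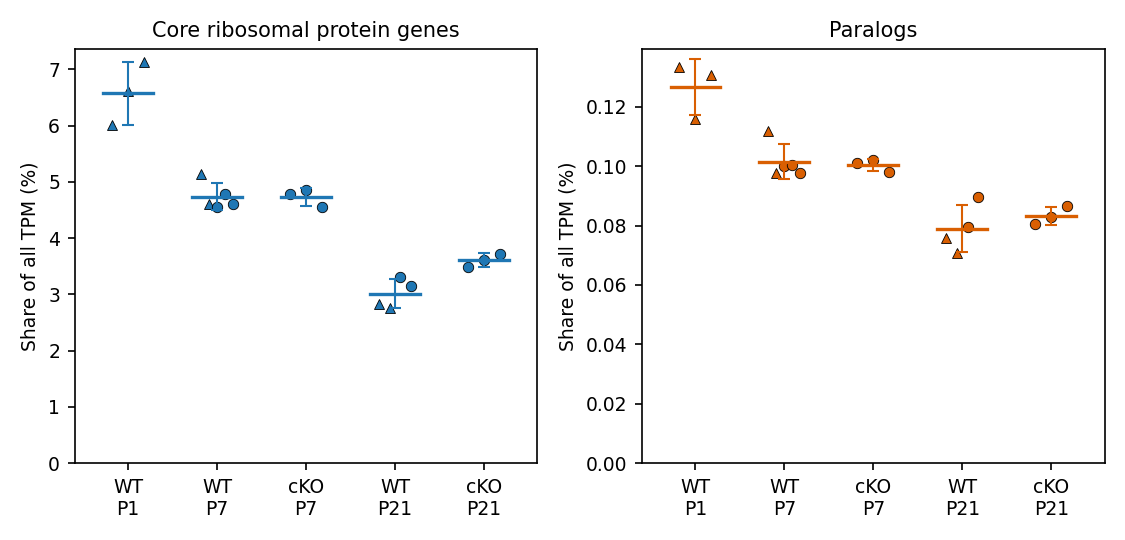
Summed TPM of the 79 core genes (left) and the 13 paralogs (right) as a percentage of all TPM in each library, by group. Triangles are libraries with letter-coded titles, circles those with plain numbers, lines are means and bars 1 SD; the core share falls from 6.58% at P1 to 3.01% at WT P21, and lies at 3.48% to 3.73% at cKO P21.

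Within the core set the proportions were steadier than the total. Rps14 and Rps9, of the small subunit, changed their share of the core sum by 0.04 on the log2 scale between the highest and the lowest group, and Rpl7a and Rpl4 of the large subunit by 0.04 and 0.06. The 2 exceptions past 1 log2 unit were Rps23rg1, a copy at 0.06 to 3.89 TPM, and Rpl3, whose share fell by more than that of any other core gene above 5 TPM. Rpl3 made up 1.09% ± 0.0434 of the core sum at P1 (SD, n = 3), 1.06% ± 0.0387 at WT P7 (n = 5) and 0.532% ± 0.0549 at WT P21 (n = 4). It made up 1.04% ± 0.0315 at cKO P7 (n = 3) and 0.648% ± 0.0174 at cKO P21 (n = 3). This share does not depend on the scaling of a library. The next were Rpl29 with 0.57, Rpl12 with 0.48 and Rps26 with 0.47, where the Rpl29 value rests on library 55 of cKO P21, at 200.1 TPM against 432.5 and 446.8 in the other two.

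From P1 to P7 in WT hearts nearly the whole core set fell, by a median of 0.50 on the log2 scale. Of the 77 core genes past the filter (3 or more libraries with 1 TPM or more), 72 were lower (93.5%) and 0 higher in limma at a Benjamini-Hochberg adjusted p under 0.05, where 14.7% of all genes tested were lower and 13.8% higher; 74 core genes had an unadjusted p under 0.05, all lower. The median log2 change of TPM + 1 over all genes was -0.00, and all 77 core changes were below 0. Libraries of the 2 ages did not overlap for 73 core genes, all lower at P7, where 17.1% of all genes were so. After scaling 71 were lower, with a background of 16.1% lower and 14.8% higher and a core median of -0.51. The 5 not called on TPM were Rpl29, Rpl5, Rps13, Rps15a and Rps23rg1.

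The largest falls over that first week were in Rpl12, at the base of the stalk, in Rpl37, Rpl10a and Rpl32 of the large subunit, and in Rps28 and Rps26, which line the path by which messenger RNA leaves the small subunit. Rpl12 was measured at 29.6, 32.5 and 32.8 TPM at P1 and at 16.6 to 20.2 TPM at P7 with a median of 18.1. All 5 P7 libraries lay below P1, and the log2 change was -0.83 ± 0.10 (SE, adjusted p = 4.85e-05 in limma). Rpl10a, part of the L1 stalk, was measured at 654, 730 and 739 TPM at P1 and at 430 to 489 TPM at P7. It fell by 0.69 ± 0.09 on the log2 scale (adjusted p = 0.000105). Rps26 was measured at 785, 845 and 830 TPM at P1 and at 501 to 584 TPM at P7, a fall of 0.66 ± 0.07 (adjusted p = 1.36e-05). The model compares P1 with P7 at equal title style, and every P1 title carried a letter code. Markers of dividing cells, all 5 found, summed to 303 to 338 TPM at P1 and 197 to 269 TPM at WT P7, and their part in the core result was not tested.

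From P7 to P21 in WT hearts the core genes fell again on the TPM scale, and most of that fall was shared with the median gene. On TPM, 76 of 77 core genes were lower (98.7%) and 0 higher, where 64.4% of all genes were lower and 8.10% higher, and 76 had an unadjusted p under 0.05, all lower. The core median was -0.66 beside -0.47 for all genes, and Rps13 was the gene not called. After scaling 17 were lower (22.1%) and 0 higher, against 27.4% lower and 27.0% higher among all genes, and the core median was -0.09. The scaled share of lower core genes was thus near the background, while that of higher ones, at 0, was below the 27.0% of all genes. With scaling 20 of the 77 changes turned from below 0 to above 0. Libraries did not overlap for 75 core genes on TPM, all lower, where 54.1% of all genes were lower and 6.13% higher in this way, and for 4 after scaling, where 22.1% were so: Rpl3, Rps23rg1, Rps26 and Rps7. Dividing-cell markers stood at 5.55 to 9.52 TPM at WT P21, and their part was not tested. In RNA from a heart, fewer cells of a type and less RNA per cell cannot be told apart.

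Rpl3 had the lowest log2 change of the core genes over this interval on either scale. It fell by 1.66 ± 0.05 on the log2 scale of TPM + 1 (adjusted p = 2.4e-12) and by 1.09 ± 0.06 after scaling (adjusted p = 1.99e-09). Rpl39, near the exit of the peptide tunnel, fell by 1.02 ± 0.09 on TPM and by 0.45 ± 0.10 after scaling (adjusted p = 6.36e-08 and 0.0011). Rps26 fell by 0.94 ± 0.06 and 0.37 ± 0.06 (adjusted p = 1.03e-09 and 9.58e-05). Rpl38, which is known for its part in the translation of Hox messenger RNAs, fell by 0.93 ± 0.07 and 0.36 ± 0.10 (adjusted p = 6.64e-09 and 0.00513). Rpl5, which binds 5S ribosomal RNA, was lower by 0.93 ± 0.15 on TPM (adjusted p = 4.8e-05), and its scaled change of -0.38 ± 0.16 did not pass (adjusted p = 0.0547). Rps23rg1, the lowest core gene past the filter, was at 0.68 to 2.86 TPM at WT P7 and 0.06 to 0.41 TPM at WT P21, and it passed on both scales.

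In cKO hearts the same interval gave 70 lower core genes on TPM (90.9%) and 0 higher, where 39.0% of all genes were lower and 9.36% higher; 71 had an unadjusted p under 0.05. The core median was -0.41 beside -0.24. After scaling 12 were lower (15.6%) and 0 higher, against 20.2% lower and 19.5% higher among all genes. Libraries of the ages did not overlap for 74 core genes on TPM, all lower, where 47.8% of all genes were lower and 12.7% higher in this way. After scaling they did not overlap for 43 lower core genes (27.4% of all genes) and for 4 higher ones, Rplp2, Rps15, Rps21 and Rps27 (26.2%). Rpl3 fell by 1.07 ± 0.07 on TPM and by 0.79 ± 0.08 after scaling (adjusted p = 5.53e-09 and 1.27e-06). Rpl15, of the large subunit, was measured at 306, 314 and 269 TPM at cKO P7 and at 181, 170 and 198 TPM at cKO P21. It fell by 0.69 ± 0.09 on TPM and by 0.41 ± 0.10 after scaling. Rps26 fell by 0.65 ± 0.07 and 0.37 ± 0.07, and Rpl36a by 0.64 ± 0.09 and 0.36 ± 0.10. Rps27, of the small subunit, was measured at 1145, 1198 and 1140 TPM at cKO P7 and at 1056, 1076 and 1134 TPM at cKO P21; its change of -0.09 ± 0.09 on TPM did not pass (adjusted p = 0.39).

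At P7 no core gene passed the test between cKO and WT hearts. In limma, 0 of 77 core genes passed in either direction, on TPM and after scaling, and 0 had an unadjusted p under 0.05 on either scale; of all genes 0.0203% were higher and 0% lower on each scale. Core log2 changes ran from -0.21 to 0.27 on TPM, with a median of -0.01 beside -0.02. The smallest p among core genes belonged to Rplp0, the base of the stalk, at 661, 786 and 711 TPM in cKO against 758 to 925 TPM in WT. The libraries overlapped, and the change was -0.21 ± 0.10 (adjusted p = 1). Rpl36 followed with -0.11 ± 0.08 (adjusted p = 1). Libraries of the genotypes overlapped for all 77 core genes on TPM, where 1.26% of all genes were higher and 2.73% lower with no overlap. After scaling 6 core genes were higher with no overlap, where 2.38% of all genes were so, and 0 lower, where 2.07% were so.

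**Figure D2:**
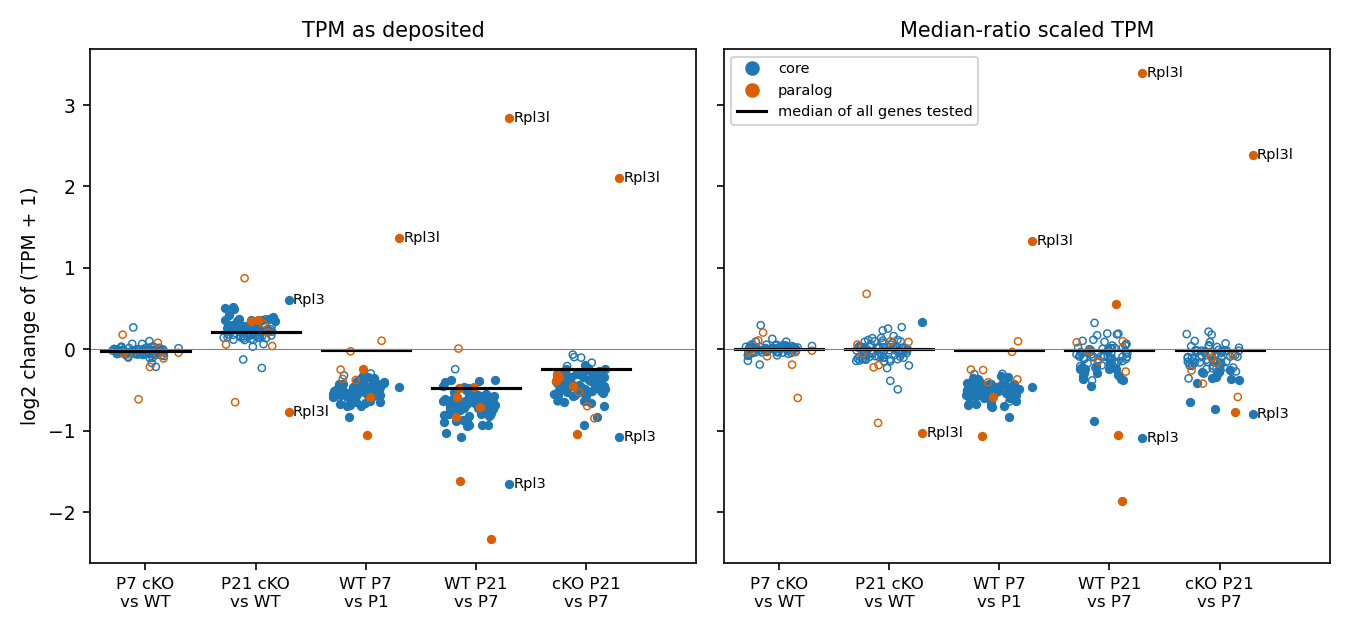
Log2 change of TPM + 1 for each tested core gene (blue) and paralog (orange) in 5 comparisons, on TPM as deposited (left) and after median-ratio scaling (right). Filled points passed an adjusted p under 0.05, the black line is the median of all genes tested; scaling moves the core median at P21 from 0.25 to -0.01, while Rpl3l lies above 1 in all 3 comparisons of age on both scales.

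At P21, core genes were higher in cKO than in WT hearts on TPM, by about as much as the median gene. On TPM, 31 of 77 core genes were higher (40.3%) and 0 lower, where 19.5% of all genes were higher and 1.77% lower, and 48 had an unadjusted p under 0.05. They were 14 of 46 large-subunit and 17 of 31 tested small-subunit genes. The core median was 0.25 beside 0.22 for all genes. After scaling 1 core gene (Rpl3) was higher (1.30%) and 0 lower, against 4.0% higher and 5.33% lower, the core median was -0.01, and 3 core genes had an unadjusted p under 0.05. Of the 75 core changes above 0 on TPM, 33 were above 0 after scaling. Libraries of the genotypes did not overlap for 48 core genes on TPM, all higher, where 28.5% of all genes were higher and 3.07% lower in this way, and for 2 after scaling (Rpl3 and Rpl12), where 10.4% were so. The TPM count was 13 without cKO library 64 and 16 without cKO library 59, and 19 with no filter on low values.

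Rpl3 showed the largest of the called differences. It was measured at 225, 240 and 235 TPM in P21 cKO and at 168, 155, 157 and 156 TPM in P21 WT, and the groups lay well apart. The log2 change was 0.60 ± 0.07 on TPM (1.52-fold, adjusted p = 7.8e-05) and 0.34 ± 0.08 after scaling (1.27-fold, adjusted p = 0.0141). Rps20, on the head of the small subunit, was measured at 84.9, 78.2 and 89.1 TPM in cKO against 55.9, 45.8, 70.4 and 57.1 TPM in WT. Its change of 0.52 ± 0.17 passed on TPM (adjusted p = 0.0447), did not pass after scaling (0.26 ± 0.20, adjusted p = 0.474), and lost its call in 14 of the 18 fits that left out 1 library. Rpl12 was measured at 15.4, 15.3 and 17.1 TPM in cKO against 9.96, 9.85, 11.4 and 10.4 TPM in WT. It was higher by 0.51 ± 0.10 on TPM (adjusted p = 0.00426), and its scaled change of 0.27 ± 0.11 did not pass (adjusted p = 0.156).

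The next core genes by size passed on TPM and not after scaling. Rpl10, which joins the large subunit late in its maturation, was higher by 0.49 ± 0.14 on TPM (adjusted p = 0.0227), with 0.23 ± 0.14 after scaling (adjusted p = 0.331). Without cKO library 59 or 64 it lost its TPM call. Rps28 was measured at 412, 426 and 420 TPM in cKO against 287, 293, 342 and 312 TPM in WT, and was higher by 0.43 ± 0.10 (adjusted p = 0.00774), with 0.16 ± 0.12 after scaling (adjusted p = 0.452). Rpl39 was higher by 0.40 ± 0.11 (adjusted p = 0.0198), with 0.14 ± 0.12 after scaling, and also lost its TPM call without cKO library 59 or 64. At the other end Rplp0 was 638, 616 and 497 TPM in cKO and 598, 574, 629 and 538 TPM in WT, a change of 0.03 ± 0.11 (adjusted p = 0.845) on TPM and -0.23 ± 0.14 after scaling (adjusted p = 0.33). Rps13, at 63.1, 194 and 171 TPM in cKO, and Rpl29, at 200.1, 433 and 447 TPM, had 1 low library each, number 55.

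Sums of fibroblast, endothelial and mural markers were higher in P21 cKO than in P21 WT on TPM, where the median gene was higher too. Fibroblast markers, all 7 found, summed to 648 to 770 TPM in P21 cKO and 431 to 549 in P21 WT, endothelial markers (7) to 492 to 545 and 321 to 427, and mural markers (5) to 349 to 371 and 210 to 297. The groups did not overlap in these 3 sums, where 28.5% of all single genes were higher with no overlap. The sums were not scaled. Cardiomyocyte markers summed to 57403 to 61219 TPM in cKO and 55089 to 61065 in WT. Macrophage markers summed to 102 to 141 TPM in cKO and 111 to 169 in WT, and red cell markers to 10703 to 20934 and 6225 to 16185. The groups overlapped in each of these sums. Skeletal muscle markers, 7 found and 2 tested, summed to 1.88 to 3.42 TPM in cKO and 7.38 to 9.65 in WT with no overlap; 1 of the 2, Tnni2, was lower in cKO, and Myod1 was at 0 throughout. The part of these cells in the P21 differences of the core genes and of Rpl3l was not tested.

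The difference between the P21 and the P7 effect was tested as an interaction. On TPM 10 of 77 core genes had a higher effect at P21 (13.0%) and 0 a lower one, where 7.04% of all genes were higher and 0.520% lower; 46 had an unadjusted p under 0.05. They were Rpl3, Rpl12, Rps28, Rpl38, Rpl10a, Rplp1, Rps24, Rps12, Rpl34 and Rps3. After scaling the count was 0 in both directions, against 0.932% higher and 1.40% lower, and 2 had an unadjusted p under 0.05. For Rpl3 the difference between the effects was 0.59 ± 0.08 on TPM (adjusted p = 0.00273) and 0.30 ± 0.10 after scaling (adjusted p = 0.142). With 1 library left out, the TPM count was 8 to 10 without WT P1 library 1 or 2, WT P21 library 57 or cKO P21 library 55. It was 18 to 21 without WT P1 library 3, WT P7 library 72 or WT P21 library 60. Without any 1 of the other 11 libraries it was 2 to 6, lowest without cKO P21 library 64.

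Rpl3l rose steeply with age while Rpl3 fell. At P21 the model put Rpl3l lower in cKO hearts. Libraries of the genotypes overlapped on TPM, and the call depended on the settings given below. Rpl3l was measured at 4.75, 4.12 and 9.18 TPM at P1. At WT P7 it was measured at 14.4 and 13.97 TPM in the 2 libraries with letter-coded titles and at 36.8, 28.7 and 33.1 TPM in the 3 with plain numbers. At WT P21 it stood at 141 and 135 TPM in the letter-coded and at 177 and 215 TPM in the plain-number libraries. WT ages did not overlap, and at P7 and at P21 the letter-coded libraries lay below the plain-number ones; P1 had letter-coded libraries only. In cKO hearts Rpl3l was measured at 35.7, 22.5 and 30.9 TPM at P7 and at 109, 139 and 142 TPM at P21.

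**Figure D3:**
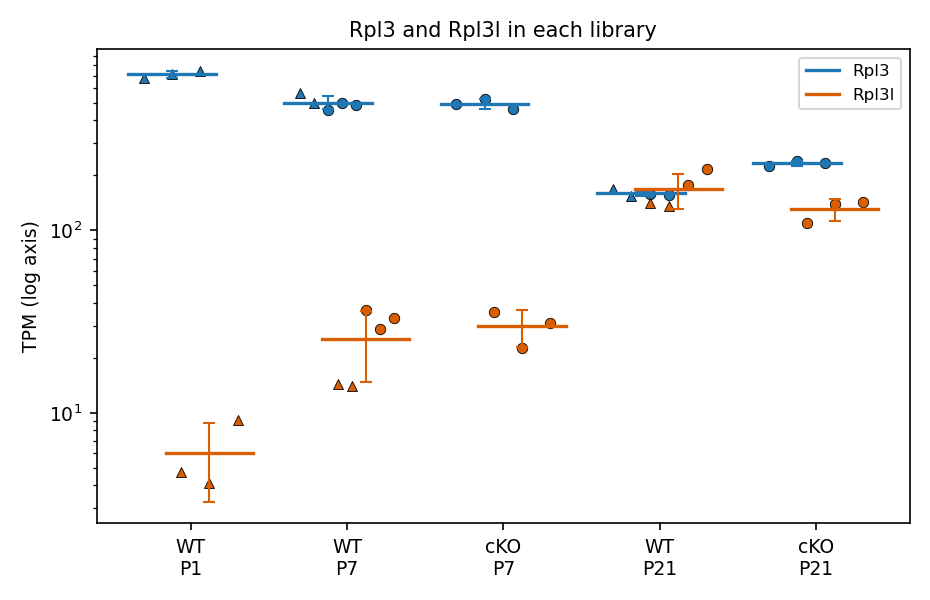
TPM of Rpl3 (blue) and Rpl3l (orange) in each library on a log axis, with triangles for letter-coded and circles for plain-number titles, lines for means and bars for 1 SD. At WT P21 both genes lie between 135 and 215 TPM, whereas at cKO P21 Rpl3 (225 to 240) lies above Rpl3l (109 to 142).

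In limma the log2 change of Rpl3l was 1.36 ± 0.24 from WT P1 to P7 (2.57-fold, adjusted p = 0.000698), 2.84 ± 0.19 from WT P7 to P21 (7.16-fold, adjusted p = 4.57e-09) and 2.11 ± 0.23 from cKO P7 to P21 (4.31-fold, adjusted p = 3.15e-06). After scaling the changes were 1.33 ± 0.27, 3.40 ± 0.21 and 2.38 ± 0.26, and each passed. Among plain-number libraries alone the WT P7 to P21 change was 2.54 (adjusted p = 3.46e-06). Rpl3l was the one member called higher over each of these 3 intervals on both scales. Background shares of higher genes were those given with the core counts.

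Between genotypes Rpl3l at P7 showed a log2 change of -0.04 ± 0.22 (95% interval -0.51 to 0.43, adjusted p = 1). At P21 it was lower in cKO by 0.77 ± 0.24 on TPM, a fold of 0.586 with a 95% interval of -1.28 to -0.26 on the log2 scale (adjusted p = 0.0337), and the scaled log2 change was -1.03 ± 0.27 (adjusted p = 0.0256). On TPM the cKO libraries overlapped the letter-coded WT libraries and lay below both plain-number ones. After scaling they stood at 125, 150 and 155 against 179, 178, 248 and 256, with no overlap, where 11.5% of all genes were lower with no overlap. The call rested on the model: without the term for title style the change was -0.345 (adjusted p = 0.459), and among plain-number libraries alone it was -0.59 (adjusted p = 0.0703). It was also lost in 7 of the 18 fits without 1 library, namely WT P7 library 1 or 3, WT P21 library 2 or 3, and cKO P21 library 55, 59 or 64, with changes from -0.95 to -0.65 over the 18 fits. The interaction of genotype and age was -0.73 ± 0.30 on TPM (adjusted p = 0.127) and -1.01 ± 0.34 after scaling (adjusted p = 0.14), and did not pass on either scale.

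The make-up of the pair needs no scaling between libraries. Rpl3l was 0.695%, 0.567% and 1.22% of Rpl3 plus Rpl3l at P1. It was 2.48%, 2.73%, 7.44%, 5.47% and 6.39% at WT P7, and 45.7%, 46.6%, 52.9% and 58.0% at WT P21. In cKO hearts it was 6.79%, 4.14% and 6.26% at P7 and 32.6%, 36.7% and 37.7% at P21. The P7 genotypes overlapped. At P21 all 3 cKO libraries lay below the 4 WT libraries of either title style. The sum of the pair was 334.5, 379.5 and 376.9 TPM in P21 cKO and 309, 290.4, 334.6 and 371.5 TPM in P21 WT, which overlapped, against 494 to 582 TPM in WT and cKO hearts at P7.

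**Figure D4:**
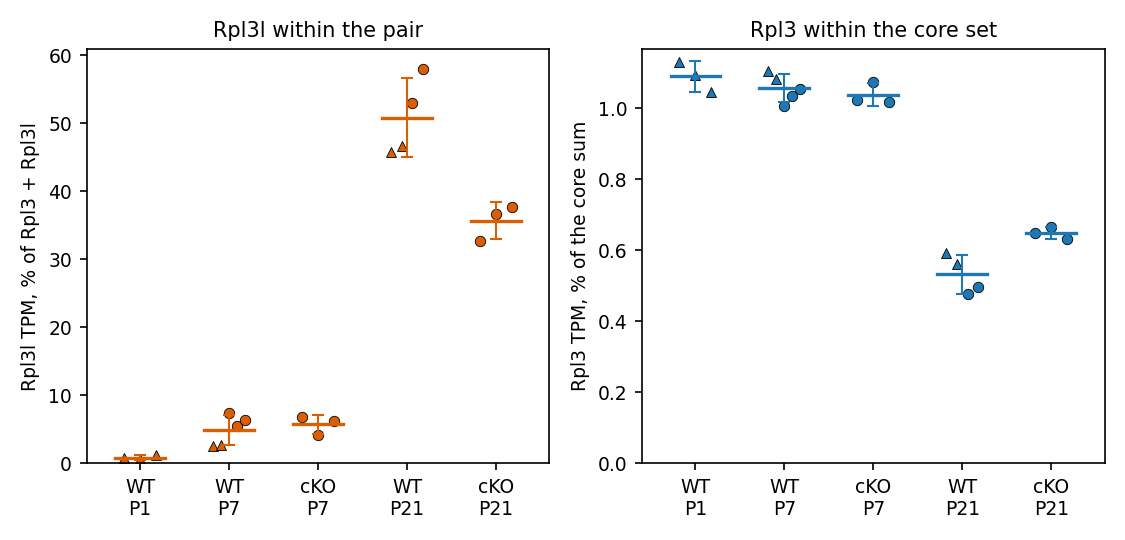
Left, Rpl3l TPM as a percentage of Rpl3 plus Rpl3l in each library; right, Rpl3 TPM as a percentage of the summed core TPM; triangles are letter-coded and circles plain-number titles, lines are means and bars 1 SD. The pair share is 50.8% at WT P21 and 35.7% at cKO P21 with no overlap, and Rpl3 is 0.532% and 0.648% of the core sum.

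Rpl3l lies 576.9 kb from Pdpk1 on chromosome 17; Pdk1 is on chromosome 2. Levels of Rpl3l over the 5 groups ran in the order WT P1, WT P7 with cKO P7, cKO P21 and WT P21. The neighbours WT P7 and cKO P7 did not differ beyond their spread, and cKO P21 and WT P21 overlapped on TPM.

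Among the other 12 paralogs, 8 passed the filter. On TPM 7 of these 8 were lower from WT P7 to P21, where 64.4% of all genes were. After scaling 2 of 8 were lower, where 27.4% of all genes were. Rpl10l, Rpl32l, Rpl39l and Rpl6l stayed under 1 TPM in all 18 libraries and were not tested; Rpl10l and Rpl39l are known from testis. Of 9 paralogs tested, Rpl3l included, 1 was higher and 3 lower from WT P1 to P7 on TPM, and 1 was higher and 7 lower from WT P7 to P21. From cKO P7 to P21, 1 was higher and 5 lower. Between genotypes 0 of 9 passed at P7, with 1 at an unadjusted p under 0.05, and 2 were higher and 1 lower at P21. After scaling the counts were 1 and 2, 2 and 2, 1 and 1, 0 and 0, and 0 and 1. The backgrounds are those given with the core counts.

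Rpl22l1, the paralog of Rpl22, was measured at 237, 104 and 118 TPM at P1, at 51.0 to 80.6 TPM at WT P7 and at 29.9 to 42.6 TPM at WT P21. It fell by 1.06 ± 0.29 from P1 to P7 (adjusted p = 0.0137), and without the P1 library at 237 TPM the change was -0.69 and did not pass (adjusted p = 0.0608). Rpl22l1 was 24.7% of the pair at P1 and 13.6% at WT P21, with 13.7% at cKO P21. Rps27l, known as a p53 target, was 186, 199 and 247 TPM at P1, 214 to 238 at WT P7 and 130 to 141 at WT P21. Its change over the first week did not pass (0.11 ± 0.09, adjusted p = 0.422), and its share of the pair with Rps27 was 11.2% at P1, 15.9% at WT P7 and 13.0% at WT P21.

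Rpl36al, whose coding sequence is 87.74% identical to that of Rpl36a, fell less than its partner. It was measured at 310, 345 and 392 TPM at P1, at 285 to 326 TPM at WT P7 and at 201 to 241 TPM at WT P21. Rpl36al was 40.4% ± 0.792 of the pair at P1 (SD, n = 3), 45.1% ± 1.16 at WT P7 (n = 5) and 51.9% ± 1.83 at WT P21 (n = 4), and no library overlapped between ages. In cKO hearts it was 43.3% ± 0.831 at P7 and 47.7% ± 1.63 at P21 (n = 3 each). At P21 the highest cKO library, 49.3%, lay above the lowest WT library, 49.1%. From WT P7 to P21 Rpl36al fell by 0.47 ± 0.07 on TPM (adjusted p = 1.64e-05), and after scaling the sign turned, at 0.10 ± 0.08 (adjusted p = 0.295). Rpl7l1, a paralog of Rpl7 that acts in ribosome assembly, turned in the same way, from -0.46 ± 0.11 (adjusted p = 0.00106) to 0.09 ± 0.09 after scaling (adjusted p = 0.432).

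Rps4l, a copy of Rps4x, was measured at 130, 108 and 126 TPM at P1, at 94.6 to 103 TPM at WT P7 and at 37.2, 30, 28.7 and 29.9 TPM at WT P21. In cKO hearts it was measured at 88.0, 82.7 and 73.2 TPM at P7 and at 33.9, 39.2 and 44.0 TPM at P21. The 3 cKO libraries at P7 lay below the WT libraries and those at P21 overlapped them. It fell by 1.61 ± 0.09 from WT P7 to P21 on TPM and by 1.05 ± 0.09 after scaling (adjusted p = 3.08e-10 and 1.94e-07). The P21 cKO difference of 0.36 ± 0.11 passed on TPM (adjusted p = 0.0294) and not after scaling (0.10 ± 0.12, adjusted p = 0.647); it was also lost without WT P21 library 3 or 57 or cKO P21 library 59 or 64, with the lowest value 0.27. The interaction, 0.57 ± 0.13 on TPM (adjusted p = 0.0218), was 0.29 ± 0.15 after scaling (adjusted p = 0.351), and its TPM call was lost without cKO P7 library 82 or cKO P21 library 59 or 64.

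The remaining 3 paralogs share 50-base stretches with their partners, so their levels are uncertain. Rps12l1 shares all 350 of its stretches with Rps12 and ranged from 1.11 to 54.9 TPM. Rps27rt shares 91.08% with Rps27 and ranged from 15.0 to 47.6 TPM. Rpl37rt shares 38.7% with Rpl37 and is 99.66% identical to it over the 291 coding bases; its mean share of the pair was 51.1% to 52.2% over the groups. Rpl37rt was higher in P21 cKO by 0.35 ± 0.10 on TPM (adjusted p = 0.0265) and not after scaling (0.09 ± 0.12, adjusted p = 0.696), and the TPM call was lost without cKO P21 library 55 or 59.

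The elongation factors Eef1a1 and Eef1a2, which bring aminoacyl-tRNA to the ribosome and of which the second replaces the first in mature muscle, moved in opposite directions from P7 to P21. Eef1a1 was measured at 4055 to 4679 TPM at P1, 2658 to 2990 at WT P7 and 627 to 745 at WT P21, with 1487, 1206 and 1221 TPM at cKO P21. Eef1a2 was measured at 184 to 217 TPM at P1, 229 to 291 at WT P7 and 476 to 539 at WT P21, with 388, 418 and 422 TPM at cKO P21. From WT P7 to P21 Eef1a1 fell by 2.03 ± 0.07 on TPM and by 1.46 ± 0.08 after scaling, and Eef1a2 rose by 0.96 ± 0.06 and 1.53 ± 0.08 (adjusted p = 5.29e-12, 1.41e-09, 9.94e-10 and 8.19e-10). Over the first week Eef1a1 fell on both scales, and the change of Eef1a2 passed on TPM (0.24 ± 0.07, adjusted p = 0.02) and not after scaling (0.23 ± 0.10, adjusted p = 0.101). No P21 library of either gene overlapped between genotypes. At P21 Eef1a1 was higher in cKO by 0.91 ± 0.09 on TPM and by 0.65 ± 0.10 after scaling, and Eef1a2 was lower, with changes of -0.39 ± 0.07 and -0.65 ± 0.10 (adjusted p = 3.19e-05, 0.00126, 0.0023 and 0.00126). The interaction passed for both genes on both scales (Eef1a1 0.87 and 0.58, Eef1a2 -0.31 and -0.60).

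Of 22 other TOP messenger RNAs and ribosome-linked proteins, 21 were lower from WT P1 to P7 and 21 from WT P7 to P21 on TPM, and 13 were higher in P21 cKO, with 0 at P7, where 14.7% and 64.4% of all genes were lower and 19.5% higher. After scaling 20 were lower over the first week, 8 lower and 3 higher from WT P7 to P21, and 2 higher in P21 cKO (Eef1a1 and Npm1), where 16.1% of all genes were lower in the first week, 27.4% lower and 27.0% higher in the second interval, and 4.0% higher in P21 cKO. Npm1, a nucleolar chaperone of assembly, was higher by 0.26 ± 0.06 on that scale (adjusted p = 0.0154). Naca, of the nascent chain complex, was measured at 423, 450 and 439 TPM in P21 cKO against 320 to 346 TPM in WT, higher by 0.38 ± 0.05 on TPM (adjusted p = 0.000342), with 0.11 ± 0.06 after scaling (adjusted p = 0.293). The list median at P21 was 0.29 on TPM, beside 0.22 for all genes, and 0.03 after scaling.

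Of 50 ribosome biogenesis genes, 17 were lower and 1 higher from WT P1 to P7 on TPM, with a median of -0.20, beside -0.00 for all genes. From WT P7 to P21, 47 were lower and 0 higher, and 23 were higher and 0 lower in P21 cKO, with a median of 0.30. Of all genes 14.7% were lower and 13.8% higher in the first week, and 64.4% lower and 8.10% higher in the second interval. In P21 cKO 19.5% were higher and 1.77% lower. After scaling 16 were lower and 1 higher over the first week, and 8 lower and 6 higher from WT P7 to P21. In P21 cKO 1 was higher (Rrp12) and 1 lower (Polr1a, the largest subunit of RNA polymerase I). The scaled shares over all genes were 16.1% lower and 14.8% higher in the first week. They were 27.4% lower and 27.0% higher from WT P7 to P21, and 4.0% higher and 5.33% lower in P21 cKO. Rrp12, which acts in export of ribosomal subunits, was higher by 0.82 ± 0.16 on TPM and by 0.62 ± 0.15 after scaling (adjusted p = 0.00428 and 0.02). Polr1a was lower by 0.42 ± 0.11 after scaling (adjusted p = 0.0298), with -0.17 ± 0.14 on TPM (adjusted p = 0.378).

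Of 18 genes of translation initiation and TOP regulation, 6 were lower and 3 higher from WT P1 to P7 on TPM. The shares over all genes were 14.7% and 13.8%. From WT P7 to P21, 15 were lower and 1 higher, where 64.4% and 8.10% of all genes were. In P21 cKO 4 were higher on TPM (22.2%, near the 19.5% of all genes). After scaling the counts were 6 lower and 2 higher, 6 lower and 5 higher, and 1 higher and 1 lower. The scaled shares over all genes were 16.1% lower and 14.8% higher, 27.4% lower and 27.0% higher, and 4.0% higher and 5.33% lower. Eif4ebp1, the mTOR target that blocks cap binding, was measured at 82.1, 67.7 and 68.2 TPM in P21 cKO against 31.4, 30.2, 51.3 and 47.9 TPM in WT, higher by 0.75 ± 0.15 (adjusted p = 0.00488), and its scaled change of 0.49 ± 0.17 did not pass (adjusted p = 0.0791). Myc, a transcription factor that drives ribosome production, was measured at 9.57, 3.36 and 3.5 TPM in P21 cKO, the first in library 55, against 1.14, 1.02, 2.19 and 1.65 TPM in WT. It was higher by 1.14 ± 0.27 on TPM and by 0.99 ± 0.29 after scaling (adjusted p = 0.00902 and 0.0417). None of these 18 genes, of the 50 or of the 22 passed at P7 in limma on either scale.

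The 8 genes whose log2(TPM + 1) correlated most with that of Rpl3l over the 18 libraries, of 12403 compared, were Egln1 (Pearson r = 0.984), Ckmt2 (0.982), Chpt1 (0.978), Slc38a3 (0.975), Hrc (0.974), Tcaim (0.974), Eef1a2 (0.972) and Asb10 (0.972). The libraries share age groups, so these values describe a common rise with age. Ckmt2, the creatine kinase of muscle mitochondria, averaged 256, 598 and 1612 TPM at WT P1, P7 and P21 and 542 and 1321 at cKO P7 and P21. Hrc, a calcium-binding protein of the sarcoplasmic reticulum, averaged 90.3, 172 and 413 TPM in WT and 172 and 310 in cKO. Egln1, an oxygen-sensing hydroxylase, averaged 48.4, 61.5 and 101 TPM in WT and 66.5 and 97.5 in cKO.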

How the data were processed

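RNA from hearts was sequenced after a SMARTer kit, per the labels' protocols. Per the submitters' processing notes the tools were TopHat2 2.0.14 and Cufflinks 2.2.1 with mm10; the sources used here do not give the annotation, the strand setting or the tool behind the TPM values, so a gene and its antisense partner could not be told apart. The authors deposited 1 table of TPM with 19 library columns, 7 mean columns not used here and 2 columns of no sample, also not used. No depth can be had from TPM.

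Of the 19 libraries, 18 were fitted. The 14812 genes that reached 1 TPM in 3 or more libraries entered the test, as log2(TPM + 1), with limma 3.58.1 (R 4.3.3; lmFit, eBayes with trend; group and title style), Benjamini-Hochberg within a comparison over all genes, adjusted p under 0.05. The design named TPM or FPKM, and the file held TPM. Of the 92 members 86 were tested. Alternatives were median-ratio scaling, a pseudocount of 0.1, no filter or one at 5 TPM, leaving out mitochondrial and haemoglobin genes, no title style term, plain-number libraries only, a replicate block and each library left out. The steps were tested on simulated data with 200 changed genes. Alignments used Biopython 1.88 and figures matplotlib 3.10.9.

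The members and lists were chosen with earlier results of these data known. Named were Rpl3, Rpl3l, the paralogs and partners; per comparison up to 6 core genes per direction with the largest called change, or the 2 with the smallest p; the core genes with the highest and lowest means; up to 4 called members of each other list with the smallest p; and the 8 genes most like Rpl3l. Core genes named for a single library, for a count of 5 or fewer or for their share of the core sum were chosen after their values were seen. One gene that the symbols match is not reported here.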

Additional observations from a re-analysis of the deposited data

Results flagged for a closer look

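Single libraries stood apart from the rest of their group for 4 members, by a gap test that marks about 1 in 20 groups by chance and was run on 64 groups. Rps4l was at 37.18 TPM in WT P21 library 2, above the other 3 WT libraries. Rps12l1 was at 28.41 TPM in WT P21 library 60, where the other 3 were at 1.11 to 2.86 TPM. Rpl39 was at 292.13 TPM in WT P7 library 1, and Rps3a3, which did not pass the filter, at 1.0 TPM in WT P7 library 3.

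The cKO effect differed between P21 and P7 in the interaction test on TPM for 10 core genes and 1 paralog. The differences (log2, P21 effect minus P7 effect) were 0.5865 for Rpl3, 0.5808 for Rpl12, 0.57 for Rps4l, 0.4353 for Rps28, 0.431 for Rpl38 and 0.4255 for Rpl10a. They were 0.3789 for Rplp1, 0.3658 for Rps24, 0.3506 for Rps12, 0.3344 for Rpl34 and 0.3295 for Rps3. None of the 11 passed after median-ratio scaling, where the median gene no longer shifted.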

How the results depend on the processing

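Core counts depended most on scaling. With median-ratio scaling the P21 cKO count of higher genes went from 31 to 1, the lower counts of WT P21 against P7 from 76 to 17 and of cKO P21 against P7 from 70 to 12, and the interaction count from 10 to 0. With no filter the P21 count was 19 and the interaction count 4; the latter was 5 without mitochondrial and haemoglobin genes and 1 in plain-number libraries only. Leaving out 1 library gave 13 to 40 for the P21 count and 2 to 21 for the interaction. The first-week count of 72 stayed between 69 and 73 in every alternative run. For Rpl3l, the P7 cKO change reversed without the title style term (0.3008) and ranged from -0.18 to 0.1403 without 1 library. Its P21 cKO change lost its call with no filter (-0.7708, adjusted p = 0.0792), without the title style term (-0.345) and in plain-number libraries only (-0.5928), and ranged from -0.9528 to -0.6495 without 1 library. Scaling reversed Rpl36al (0.1017) and Rpl7l1 (0.0871) for WT P21 against P7. Counted over single genes other than Rpl3l and over alternatives, 138 values lost their call, 2 reversed and 1122 stayed on their side of the threshold. For Rpl3l 10 values lost their call and 4 reversed. The cause was not tested. With the replicate block, for the letter-coded libraries that share numbers, the interaction count was 4, the P21 count 22 and the Rpl3l change at P21 -0.7558. Deviations of same-numbered libraries from their group mean correlated at -0.10 to 0.07. WT P7 and WT P21 held only 2 letter-coded libraries each, whose deviations mirror each other. These values therefore cannot tell whether same-numbered libraries share more than a number. TPM gives no depth, and low members such as Rps23rg1 are limited by it.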

Other observations

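P21 library 63, which entered no group, gave 135.95 TPM for Rpl3 and 213.22 TPM for Rpl3l, so Rpl3l was 61.1% of the pair. Its core genes summed to 2.96% of all TPM and its paralogs to 0.0842%. Rpl36al was 51.6% of its pair with Rpl36a, and Rps4l 6.92% of its pair with Rps4x.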
